A study of Danio rerio with 6 samples.

Results

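Thrombospondins are secreted, calcium-binding glycoproteins of the extracellular matrix, and their transcripts were compared between cell populations of zebrafish that carry Tg(fli1:EGFP), a transgene that places EGFP under control of fli1 sequence. The genes were chosen by name, with earlier results of these data known. Of 6 thrombospondins looked for among the gene names of the expression table, 5 were found among its 29144 entries: thbs1b, thbs2b, thbs3a, thbs3b and thbs4b. No entry is named thbs1a. Another 4 entries belong to the same family by their names and are described beside the 5, namely THBS1 (1 of many), thbs2a, thbs4a and COMP. The first of these is called here by its own name, since that name does not say which thrombospondin-1 gene it is. It may be thbs1a, which was not settled here, and it is not counted among the 5.

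RNA sequencing was run on 2 libraries each of High-Fli1+, Low-Fli1+ and Fli1- cells, 6 in all, and each population carries the transgene. Per the labels, each library was made from poly-A enriched RNA. The labels give no age, stage or sorting procedure, and they do not say whether the 2 libraries of a population come from separate animals, so p-values measure only the spread between these libraries. The fli1 reporter line is known to light up endothelium, some blood cells and the pharyngeal arches, so a population sorted on it can hold several cell types. Values are FPKM, sequenced fragments scaled to the length of the transcript and the size of the library, so that levels of different genes can be set side by side. The number of fragments behind each value is unknown.

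Thrombospondins fall into structural subgroups. Thrombospondin-1 and thrombospondin-2 form trimers and carry type 1 repeats, through which they bind receptors such as Cd36 and, for thrombospondin-1, activate latent TGF-beta. In mammals both are known as inhibitors of blood vessel growth, and thrombospondin-1 is stored in platelets. Thrombospondin-3, thrombospondin-4 and Comp form pentamers without type 1 repeats and are known from cartilage, tendon and muscle attachments.

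The libraries followed their labels in the reporter's own gene. The fli1a transcript stood at 241 and 192 FPKM in High-Fli1+ and 66.8 and 52.0 in Low-Fli1+, against 1.04 and 5.55 in Fli1- libraries. The Low-Fli1+ libraries were the least alike, with Pearson's r across genes of 0.737, against 0.892 for High-Fli1+ and 0.927 for Fli1-. Of 29126 genes, 14082 and 12575 were at 0 in them, more than in any other library. In High-Fli1+ replicate 2 a non-coding RNA, Metazoa_SRP, held 27.4% of all FPKM, against 1.77% to 13.2% in the other 5 libraries.

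The transcript of thbs1b, one of the trimeric thrombospondins, stepped up with reporter level. It stood at 308 and 288 FPKM in High-Fli1+ and 55.2 and 50.6 in Low-Fli1+, against 9.91 and 14.2 in Fli1- libraries. None of the 3 populations overlapped another. By rank, thbs1b was the 164th and 242nd most abundant of 29126 entries in the High-Fli1+ libraries, with ranks of 1432 and 1594 in Low-Fli1+, against 8087 and 6220 in Fli1- libraries. Its mean was 298 ± 14.0 FPKM in High-Fli1+ and 12.0 ± 3.005 in Fli1- cells (SD, n = 2 each), a ratio of 24.8. Fold changes here are differences of log2(FPKM + 1), which understate the change of low genes, and a call is an adjusted p under 0.05. High-Fli1+ cells exceeded Fli1- cells in thbs1b by 4.54 ± 0.25 (SE) on that scale (limma, adjusted p = 0.00235). Both steps were also called: High-Fli1+ against Low-Fli1+ gave a log2 fold change of 2.47 ± 0.25 (SE, limma, adjusted p = 0.0148), and Low-Fli1+ against Fli1- gave 2.07 ± 0.25 (SE, adjusted p = 0.0252). In bulk RNA of this kind, more cells that express a gene and more RNA per cell cannot be told apart.

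**Figure D1:**
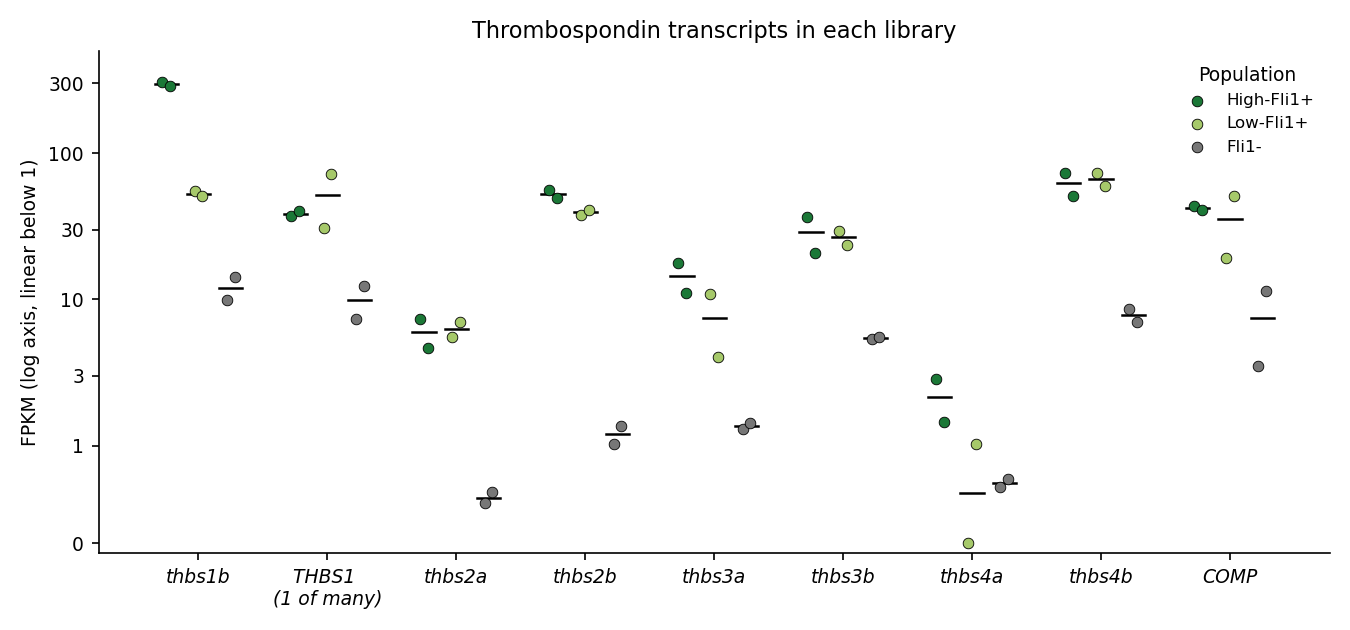
FPKM of 9 thrombospondin entries in each of the 6 libraries, on a log axis that is linear below 1, with points for libraries and bars for means. The High-Fli1+ points of thbs1b, at 308 and 288 FPKM, stand far above its Low-Fli1+ points at 55.2 and 50.6, while for thbs4b the High-Fli1+ and Low-Fli1+ points overlap.

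The call of thbs1b in High-Fli1+ against Fli1- cells held whichever library was left out, though only narrowly without High-Fli1+ replicate 2. The log2 fold changes in these fits were 4.30 to 4.78. Between High-Fli1+ and Low-Fli1+ the log2 fold change stayed at 2.41 to 2.53, but the call was kept only without Low-Fli1+ replicate 2. The adjusted p by limma was 0.0864 and 0.0998 without either High-Fli1+ library, 0.0516 without Low-Fli1+ replicate 1, 0.138 and 0.139 without either Fli1- library, and 0.143 in a fit to only High-Fli1+ and Low-Fli1+ libraries.

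The other trimeric member, thbs2b, had most of its rise over Fli1- already in Low-Fli1+ cells. It stood at 55.6 and 49.7 FPKM in High-Fli1+ and 37.7 and 41.0 in Low-Fli1+, against 1.02 and 1.37 in Fli1- libraries. Both reporter populations lay far above Fli1-, and High-Fli1+ lay just above Low-Fli1+ without overlap. Its mean was 52.6 ± 4.17 FPKM in High-Fli1+ and 39.4 ± 2.31 in Low-Fli1+, against 1.198 ± 0.248 in Fli1- cells (SD, n = 2 each). The ratios of mean FPKM to Fli1- were 44.0 in High-Fli1+ and 32.9 in Low-Fli1+ cells. On the log2 scale thbs2b rose by 4.61 ± 0.28 (SE) in High-Fli1+ (limma, adjusted p = 0.00235) and by 4.203 ± 0.28 (SE) in Low-Fli1+ (adjusted p = 0.0175), both against Fli1-. High-Fli1+ against Low-Fli1+ gave 0.41 with a 95% interval of -0.29 to 1.104 (limma, adjusted p = 0.437). This difference was 0.56 with quantile normalization and 0.76 with median-ratio scaling, and was called with neither. The call in High-Fli1+ against Fli1- cells held whichever library was left out, though only narrowly without High-Fli1+ replicate 2. The Low-Fli1+ calls of thbs1b and thbs2b were lost without Low-Fli1+ replicate 1 (limma, adjusted p of 0.0615 and 0.0592) or without either High-Fli1+ library (0.0987 and 0.101 for both genes), and in a fit to only Low-Fli1+ and Fli1- (0.104 for both).

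The pentameric thbs4b, whose zebrafish product strengthens the attachment of muscle to tendon, was high in both reporter populations. It stood at 72.9 and 51.2 FPKM in High-Fli1+ and 73.1 and 59.3 in Low-Fli1+, against 8.58 and 6.96 in Fli1- libraries. The reporter populations overlapped each other and lay above Fli1-. The log2 fold change was 2.83 ± 0.29 (SE) in High-Fli1+ (limma, adjusted p = 0.00441) and 2.94 ± 0.29 (SE) in Low-Fli1+ (adjusted p = 0.0212), each against Fli1- cells. Between High-Fli1+ and Low-Fli1+ it was -0.10 with a 95% interval of -0.82 to 0.61 (limma, adjusted p = 0.867), and the sign turned with quantile normalization (0.0017) and with median-ratio scaling (0.25). The High-Fli1+ call was lost without High-Fli1+ replicate 2 (limma, adjusted p = 0.0507) or Fli1- replicate 2 (0.0534), and the Low-Fli1+ call when any 1 library but Low-Fli1+ replicate 2 was left out (0.0573 to 0.101) and in a fit to only Low-Fli1+ and Fli1- (0.104).

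The paralogs thbs3a and thbs3b encode pentameric thrombospondin-3, a matrix protein of cartilage and developing bone. The more abundant was thbs3b, at 36.7 and 20.7 FPKM in High-Fli1+ and 29.6 and 23.6 in Low-Fli1+, against 5.36 and 5.57 in Fli1- libraries. As for thbs4b, the reporter populations overlapped and lay above Fli1-. Its log2 fold change was 2.15 ± 0.37 (SE) in High-Fli1+ (limma, adjusted p = 0.0154) and 2.09 ± 0.37 (SE) in Low-Fli1+ (adjusted p = 0.0473), each against Fli1-. Between High-Fli1+ and Low-Fli1+ it was 0.06 with a 95% interval of -0.84 to 0.96, 0.30 with quantile normalization and 0.41 with median-ratio scaling.

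The paralog thbs3a stood at 17.9 and 11.01 FPKM in High-Fli1+ and 10.97 and 4.08 in Low-Fli1+, against 1.29 and 1.42 in Fli1- libraries. The lower High-Fli1+ library and the higher Low-Fli1+ library almost met. It rose in High-Fli1+ against Fli1- cells by 2.67 ± 0.58 (SE) on the log2 scale (limma, adjusted p = 0.0300). Low-Fli1+ against Fli1- gave 1.72 with a 95% interval of 0.31 to 3.14 (limma, adjusted p = 0.164), and High-Fli1+ against Low-Fli1+ gave 0.95 with an interval of -0.47 to 2.36 (adjusted p = 0.389). The calls of both thrombospondin-3 genes in High-Fli1+ against Fli1- cells were lost when any 1 of the 4 libraries compared was left out, with adjusted p of 0.123 to 0.205 for thbs3a and 0.0571 to 0.136 for thbs3b, and that of thbs3a also with no filter on low values (0.0756). The Low-Fli1+ call of thbs3b was lost whichever library was left out (0.0613 to 0.215), and with a pseudocount of 5 (0.0551), no filter (0.0773), no variance trend (0.0578), array weights (0.0820), the replicate number as a block (0.0619) or only the populations compared (0.104).

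**Figure D2:**
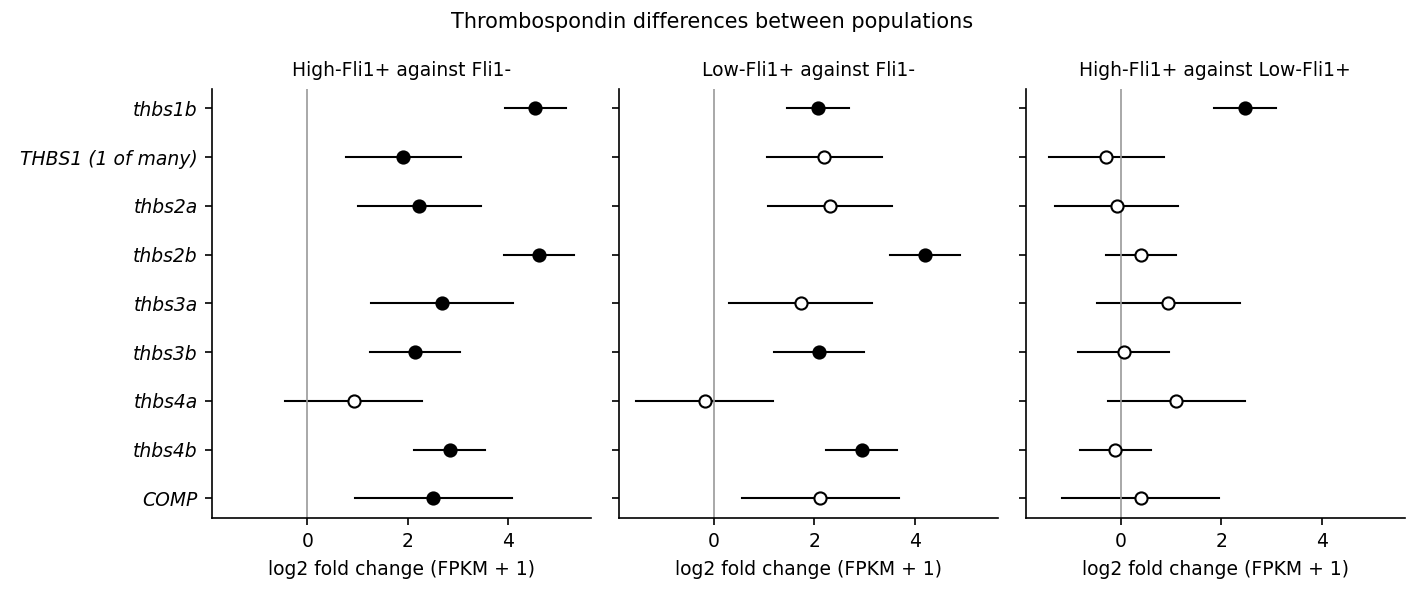
Log2 fold change of 9 thrombospondin entries in each comparison, with 95% intervals from limma and filled points for an adjusted p under 0.05 over all genes tested. In High-Fli1+ against Low-Fli1+ thbs1b is the filled point, at 2.47, and the intervals of the other 8 entries include 0.

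Among the 4 related entries, 3 rose in High-Fli1+ against Fli1- cells and 0 of 4 passed in Low-Fli1+ against Fli1- or High-Fli1+ against Low-Fli1+ by limma (3 and 0 at an unadjusted p under 0.05). Of all genes tested, 5.79% were called higher in High-Fli1+ against Fli1- cells. THBS1 (1 of many) stood at 37.3 and 39.9 FPKM in High-Fli1+ and 30.9 and 72.2 in Low-Fli1+, against 7.33 and 12.4 in Fli1- libraries. Its rise in High-Fli1+ was 1.91 ± 0.47 (SE) on the log2 scale (limma, adjusted p = 0.0421), and in Low-Fli1+, where its libraries were far apart, 2.19 (adjusted p = 0.0674). COMP, named for the cartilage oligomeric matrix protein, had 43.1 and 40.7 FPKM in High-Fli1+ and 19.3 and 51.3 in Low-Fli1+, against 3.53 and 11.5 in Fli1- libraries (log2 fold change of High-Fli1+ against Fli1- 2.51, adjusted p = 0.0464).

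The a paralogs of thrombospondin-2 and thrombospondin-4 were scarcer than the b paralogs described above. The gap was smallest for thrombospondin-2 in Fli1- libraries, where thbs2b had 2.46 and 2.62 times the level of thbs2a. That ratio was 7.57 and 10.6 in High-Fli1+ and 6.76 and 5.82 in Low-Fli1+ libraries. The thbs2a transcript had 7.34 and 4.68 FPKM in High-Fli1+ and 5.58 and 7.05 in Low-Fli1+, against 0.415 and 0.524 in Fli1- libraries, and its rise in High-Fli1+ was 2.23 on the log2 scale (limma, adjusted p = 0.0334). The thbs4a transcript had 2.84 and 1.45 FPKM in High-Fli1+ and 0 and 1.03 in Low-Fli1+, against 0.577 and 0.660 in Fli1- libraries and was called in 0 of 3 comparisons by limma, with 0 of 3 at an unadjusted p under 0.05. High-Fli1+ against Fli1- gave 0.92 for thbs4a, with a 95% interval of -0.44 to 2.29. Each of the 3 calls among these 4 entries was lost when any 1 of the High-Fli1+ or Fli1- libraries was left out.

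Read against all genes, calls were frequent in some of these comparisons. The members were chosen with earlier results of these data known, so the counts describe them and are no independent support. In High-Fli1+ against Fli1- cells 5.79% of the 19237 genes tested were called higher, and 5 of the 5 thrombospondins found were. In Low-Fli1+ against Fli1- cells 2.14% were called higher, and 4 of 5 thrombospondins were. In High-Fli1+ against Low-Fli1+ cells 1.22% were called higher, and 1 of 5 was. None of the 5 was called lower in any comparison, against 11.5%, 1.1% and 4.15% of all genes in the same order. Each of the 5 was above 1 FPKM in every library and would pass the filter on low values in any population. Without that filter, which also changes the variance model and the number of genes adjusted over, 4 and 3 of the 5 were called against Fli1- in High-Fli1+ and Low-Fli1+ cells. The median log2 fold change of the 5 was 2.83, 2.09 and 0.41, against -0.35, -0.21 and -0.13 over all genes tested. For High-Fli1+ against Fli1- the median of all genes was 0.01 with quantile normalization and -0.10 with median-ratio scaling, and the share of calls that were higher was 49.2% and 43.2%, against 33.6%. That of the 5 was 3.55 and 3.13 with these scalings. In High-Fli1+ against Low-Fli1+ the higher share of calls was 32.2% and 40.5% with these scalings, against 22.7%. In Low-Fli1+ against Fli1- it was 75.8% and 66.6%, against 66.1%, but calls were mostly lower with no filter on low values (259 higher and 532 lower, against 411 and 211), without Fli1- replicate 1 (75 and 511) or replicate 2 (110 and 524), without Low-Fli1+ replicate 2 (369 and 428) and, narrowly, with no variance trend (378 and 401). The comparisons against Fli1- share its libraries and are not independent of each other.

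Both High-Fli1+ libraries were above both Fli1- libraries for each of the 5, as for 21.6% of all genes tested, and both Low-Fli1+ libraries were above both Fli1- libraries for each of the 5, as for 18.9%. For High-Fli1+ above Low-Fli1+ this held for thbs1b, thbs2b and thbs3a, and for 18.3% of all genes.

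The makeup of the thrombospondin pool differed between the populations. Summed over the 5 genes found, it came to 491 and 421 FPKM in High-Fli1+ and 207 and 179 in Low-Fli1+, against 26.2 and 29.5 in Fli1- libraries. In High-Fli1+ libraries thbs1b made up 62.7% and 68.5% of the sum, with 26.7% and 28.3% in Low-Fli1+, against 37.9% and 48.0% in Fli1- libraries. The share of thbs1b was thus highest in High-Fli1+ and lowest in Low-Fli1+, with no overlap between the 3 populations.

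The share of thbs4b was 14.8% and 12.2% in High-Fli1+ and 35.4% and 33.2% in Low-Fli1+, where it was the most abundant of the 5, against 32.8% and 23.6% in Fli1- libraries. The share of thbs2b was 11.3% and 11.8% in High-Fli1+ and 18.3% and 23.0% in Low-Fli1+, against 3.91% and 4.66% in Fli1- libraries. That of thbs3b was lowest in High-Fli1+, at 7.48% and 4.93%, with 14.3% and 13.2% in Low-Fli1+, against 20.5% and 18.9% in Fli1- libraries. The share of thbs3a lay between 2.28% and 5.31% in all 6. With the 4 related entries counted in, thbs1b held 52.9% and 56.8% of the sum in High-Fli1+ and 21.0% and 16.3% in Low-Fli1+, against 26.1% and 25.9% in Fli1- libraries.

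**Figure D3:**
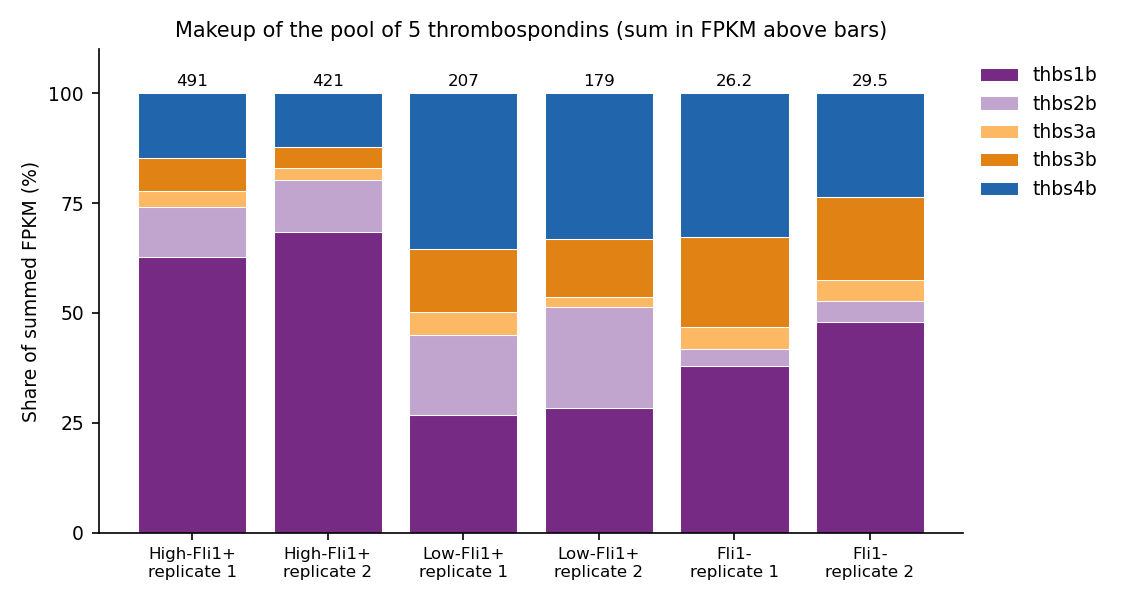
Share of each of 5 thrombospondins in their summed FPKM, by library, with the sum in FPKM above each bar. The lowest segment, thbs1b, takes 62.7% and 68.5% in High-Fli1+ and 26.7% and 28.3% in Low-Fli1+ libraries.

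By mean level the order in High-Fli1+ cells was thbs1b, thbs4b, thbs2b, thbs3b and thbs3a, in which thbs4b and thbs2b overlapped between libraries. The order in Low-Fli1+ cells was thbs4b, thbs1b, thbs2b, thbs3b and thbs3a, with no overlap between neighbours. In Fli1- cells it was thbs1b, thbs4b, thbs3b, thbs3a and thbs2b, and the last pair overlapped. Thus thbs2b was the lowest of the 5 by mean in Fli1- and the third in both reporter populations.

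Ratios of a pair of genes within a library set the members against each other without the scale of the library. The thbs1b level was 5.54 and 5.80 times that of thbs2b in High-Fli1+ and 1.46 and 1.23 times in Low-Fli1+, against 9.70 and 10.3 times in Fli1- libraries. Against thbs4b it was 4.22 and 5.62 times in High-Fli1+ and 0.756 and 0.854 times in Low-Fli1+, against 1.15 and 2.03 times in Fli1- libraries. On the log2(FPKM + 1) scale the thbs1b to thbs4b ratio was 2.58 higher in High-Fli1+ than in Low-Fli1+ cells, and the thbs1b to thbs2b ratio 2.06 higher, both without overlap.

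The ratio of the paralogs thbs3a and thbs3b differed between libraries too. The level of thbs3a was 0.487 and 0.531 of that of thbs3b in High-Fli1+ and 0.371 and 0.172 in Low-Fli1+, against 0.241 and 0.256 in Fli1- libraries. With a pseudocount of 1 their log2 ratio in High-Fli1+ cells exceeded that in Fli1- cells by 0.53, and it was 0.96 higher with a pseudocount of 0.1 and -0.06, with overlap, with a pseudocount of 5. An exact two-sided permutation test of 2 against 2 libraries cannot give a p under 0.333, which each of these contrasts without overlap gave.

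For each of the 5, the genes with the most similar pattern were sought among 14974 tested genes with a settled name, as the smallest root mean square difference of centred log2(FPKM + 1) over the 6 libraries. Likeness in 6 libraries of 3 populations is a description. Nearest to thbs1b were tgm2l, a transglutaminase (difference 0.20), klf2a, a flow-responsive transcription factor of endothelium (0.29), and f2r, a thrombin receptor (0.31). The first, tgm2l, had 55.4 and 78.0 FPKM in High-Fli1+ and 9.33 and 9.25 in Low-Fli1+, against 1.06 and 1.94 in Fli1- libraries. That it rose at each step, as thbs1b did, follows from its choice as the nearest gene. Nearest to thbs2b were pdgfra, a growth factor receptor of mesenchyme (0.22), cspg4, a proteoglycan of pericytes and mesenchyme (0.24), and sh3pxd2ab, an adaptor of matrix-degrading cell protrusions (0.27). The first of these, pdgfra, had 152 and 118 FPKM in High-Fli1+ and 85.4 and 90.5 in Low-Fli1+, against 4.86 and 6.96 in Fli1- libraries.

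For thbs4b the nearest were pth1ra, a parathyroid hormone receptor (0.13), reck, an inhibitor of matrix metalloproteases (0.20), and scxa, a transcription factor of tendon cells (0.24). The scxa transcript had 17.7 and 13.8 FPKM in High-Fli1+ and 20.5 and 16.1 in Low-Fli1+, against 2.99 and 1.78 in Fli1- libraries. That its reporter populations overlapped, as those of thbs4b did, is no separate finding, since scxa was chosen for its likeness to thbs4b. Both scxa, for tenocytes, and pdgfra, for mesenchyme, are among the cell type markers described further on. Nearest to thbs3b were ngfra, a neurotrophin receptor (0.16), map3k3, a kinase (0.17), and fermt2, an activator of integrins (0.17). Nearest to thbs3a were TRABD2B, a protease of Wnt ligands (0.15), pleca, a cytoskeletal linker (0.21), and chd, an inhibitor of BMPs (0.22). Of the 5 genes themselves, thbs3b and thbs4b were the closest pair, at a difference of 0.39, and thbs1b and thbs3b the farthest apart, at 1.16.

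Most matrix proteins known to bind thrombospondins were higher in both reporter populations. For this and the lists that follow, 5.79% of all genes were called higher and 11.5% lower in High-Fli1+ against Fli1-. These shares were 2.14% and 1.1% in Low-Fli1+ against Fli1-, and 1.22% and 4.15% in High-Fli1+ against Low-Fli1+. Of 21 tested, 18 rose and 0 fell in High-Fli1+ against Fli1- cells (median log2 fold change 3.61), and 17 rose and 0 fell in Low-Fli1+ against Fli1- (median 3.01). In High-Fli1+ against Low-Fli1+ 8 rose and 1 fell (median 1.18). The cartilage matrilin matn1 had 3214 and 2432 FPKM in High-Fli1+ and 50.7 and 82.8 in Low-Fli1+, against 3.06 and 10.1 in Fli1- libraries. Also among the largest rises in High-Fli1+ against Fli1- were the aggrecans acana (log2 fold change 7.43) and acanb (6.31) and the fibril-associated collagen col9a1a (6.65), and these 4 genes also rose in High-Fli1+ against Low-Fli1+ cells (log2 fold changes of 5.41 for matn1, 3.26 for acana, 3.61 for acanb and 2.85 for col9a1a). Of the 21, 4 are also counted as chondrocyte markers (acana, col2a1a, col9a1a and matn1) and 2 as markers of mesenchyme (col5a1 and dcn). The gelatinase mmp9 was the member that fell there (-3.82), at 7.196 and 13.99 FPKM in High-Fli1+ and 125 and 193 in Low-Fli1+ libraries.

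Genes of latent TGF-beta and its receptors, the pathway that thrombospondin-1 activates, rose in part. Of 16 tested, 10 rose and 0 fell in High-Fli1+ against Fli1- (median 2.61), 5 rose and 0 fell in Low-Fli1+ against Fli1- (median 1.88), and 0 were called between High-Fli1+ and Low-Fli1+ by limma (median 0.53), with 4 at an unadjusted p under 0.05. The ligand tgfb2 had 136 and 89.9 FPKM in High-Fli1+ and 12.1 and 53.6 in Low-Fli1+, against 7.83 and 4.76 in Fli1- libraries, with a log2 fold change of 3.97 in High-Fli1+ against Fli1- (limma, adjusted p = 0.0164). The latency-associated LTBP3 (4.02) and the TGF-beta induced matrix protein tgfbi (4.05) rose in the same comparison, of which tgfbi is also a tenocyte marker here.

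Among cell surface partners of thrombospondins, some integrin subunits led the rises and others were lower. Of 23 tested, 8 rose and 3 fell in High-Fli1+ against Fli1- (median 0.47), where 5.79% of all genes were called higher and 11.5% lower, so the falls are near the background. In the other comparisons 6 rose and 0 fell in Low-Fli1+ against Fli1- (median 0.33), and 0 rose and 1 fell in High-Fli1+ against Low-Fli1+ (median -0.14, and 0.20 with median-ratio scaling), where 4.15% of all genes fell. The largest rises against Fli1- in High-Fli1+ were in integrin subunits: itga5 (log2 fold change 3.45), itga9 (3.24) and itgb3b (3.11). The level of itgb3b, a partner of alpha subunits that bind RGD motifs, was 10.45 and 8.995 FPKM in High-Fli1+ and 19.1 and 22.9 in Low-Fli1+, against 0.0566 and 0.446 in Fli1- libraries. The receptor lrp8, known as a neuronal receptor of thrombospondin-1 and reelin, fell in High-Fli1+ (7.86 and 3.04 FPKM, against 52.0 and 48.8 in Fli1- libraries) and also against Low-Fli1+ (32.7 and 34.5 FPKM, log2 fold change -2.53). The receptor cd36, added after its values were seen because it is the best known receptor of type 1 repeats, was at 0.627 and 1.65 FPKM in High-Fli1+ and 2.89 and 1.02 in Low-Fli1+, against 1.75 and 0.862 in Fli1- libraries, and all 3 populations overlapped.

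Other matricellular proteins, which like thrombospondins signal from the matrix, counted 9 rises and 1 fall of 18 tested in High-Fli1+ against Fli1- (median 2.05), 4 and 0 in Low-Fli1+ against Fli1- (median 1.56), and 1 and 0 in High-Fli1+ against Low-Fli1+ (median 0.84). Over all genes, 5.79%, 2.14% and 1.22% were called higher in the same order, and 11.5% lower in High-Fli1+ against Fli1-. The connective tissue growth factor ctgfb had 72.8 and 68.9 FPKM in High-Fli1+ and 42.7 and 25.9 in Low-Fli1+, against 0.496 and 1.46 in Fli1- libraries. Its relatives wisp3 (log2 fold change 5.11) and cyr61 (3.40) and the follistatin-like fstl1b (3.35) rose in High-Fli1+ against Fli1-, and fstl1b also against Low-Fli1+ (1.75).

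Other proteins with type 1 repeats were called in both directions. Of 27 tested, 5 rose and 4 fell in High-Fli1+ against Fli1- (median 0.94). Of all genes, 5.79% were called higher there and 11.5% lower, so the falls are near the background. In the other comparisons 2 rose and 0 fell in Low-Fli1+ against Fli1- (median 0.48), and 1 rose and 4 fell in High-Fli1+ against Low-Fli1+ (median -0.09, and 0.15 with quantile normalization and 0.17 with median-ratio scaling). Of all genes, 2.14% were called higher in the first of these, and 1.22% higher and 4.15% lower in the second. The spondin spon2b had 24.4 and 36.9 FPKM in High-Fli1+ and 6.005 and 4.29 in Low-Fli1+ libraries and was listed at 0 in both Fli1- libraries. The brain adhesion receptors adgrb3 (-4.02) and adgrb1a (-3.24) and the membrane protein thsd7aa (-3.73) fell in High-Fli1+ against Fli1-. Of 10 genes for glycosylation and folding of thrombospondin repeats, 0 were called in any comparison by limma, with 3, 1 and 0 at an unadjusted p under 0.05 and medians of 0.01, -0.10 and 0.25. The first of these medians was -0.06 with quantile normalization, and the second 0.003. The first covers genes of both directions, with 5 of the 10 above 0. For example, pofut2 had 11.5 and 10.9 FPKM in High-Fli1+, against 4.44 and 3.14 in Fli1- libraries. In contrast, dpy19l3 had 11.8 and 2.56 FPKM in High-Fli1+, against 32.1 and 44.2 in Fli1- libraries.

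These counts moved when 1 library was left out. Such a fit leaves 1 library in a population and fewer degrees of freedom. Calls lost there therefore do not show that a result rests on that library. In High-Fli1+ against Fli1- cells 201 to 956 of all genes, and 2 or 3 of the 5 thrombospondins, were called when 1 High-Fli1+ or Fli1- library was left out, against 3316 and 5 with all 6 libraries. Without 1 library in turn, the matrix list kept 9 to 18 rises in High-Fli1+ against Fli1- cells, while the receptor, TGF-beta, matricellular and type 1 repeat lists had at least 0 and at most 7, 11, 10 and 8 rises. In Low-Fli1+ against Fli1- cells 0 genes were called, thrombospondins included, without Low-Fli1+ replicate 1 or without either High-Fli1+ library (5483, 3877 and 3859 of all genes at an unadjusted p under 0.05), and in High-Fli1+ against Low-Fli1+ cells 0 when any 1 library but Low-Fli1+ replicate 2 was left out (3396 to 5493).

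**Figure D4:**
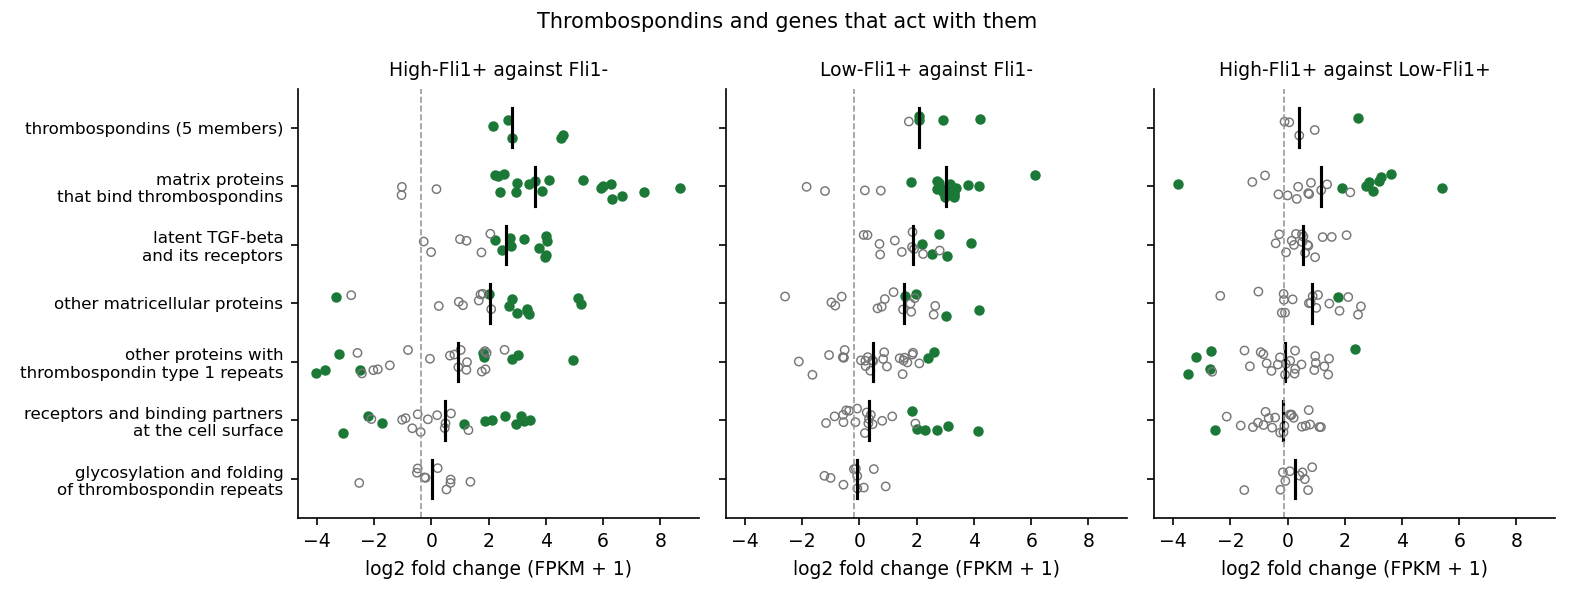
Log2 fold change of the 5 thrombospondins and of 6 gene lists, in each comparison, with a point per gene (filled where its adjusted p was under 0.05), a bar at each list's median and a dashed line at the median of all genes tested (-0.35, -0.21 and -0.13). Some lists hold binding partners or pathway genes, and others hold proteins of the same class or with the same repeats. The matrix list reaches farthest right, with a median of 3.61 in High-Fli1+ against Fli1-.

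Markers of several cell types moved with the thrombospondins, and their part in the results above was not tested. These counts too moved when 1 library was left out, with the same limit. With 1 library left out in turn, rises in High-Fli1+ against Fli1- numbered 6 to 10 for chondrocyte, 3 to 13 for mesenchyme, 1 to 11 for endothelial, 0 to 9 for tenocyte, 0 to 5 for osteoblast, 0 to 4 for thrombocyte and 2 to 6 for myeloid markers, and falls 5 to 10 for erythroid, 2 to 11 for neuron and 0 to 3 for thrombocyte markers. In the other comparisons each of these counts reached 0 in at least 1 such fit. Sums are over all markers of a list found in the table, tested or not. Beside the counts of each marker list, 5.79% of all genes were called higher and 11.5% lower in High-Fli1+ against Fli1-. These shares were 2.14% and 1.1% in Low-Fli1+ against Fli1-, and 1.22% and 4.15% in High-Fli1+ against Low-Fli1+. Of 10 chondrocyte markers, 10 rose in High-Fli1+ against Fli1-, 8 in Low-Fli1+ against Fli1- and 8 in High-Fli1+ against Low-Fli1+. Their summed level was 14716 and 12126 FPKM in High-Fli1+ and 1455 and 1583 in Low-Fli1+, against 213 and 261 in Fli1- libraries. These sums stepped up with reporter level, as thbs1b did. So did the endothelial, mesenchyme, tenocyte and osteoblast sums given below, each without overlap. Single markers of these lists did not all do so. The chondrocyte marker ucmab had 2.05 and 0 FPKM in Low-Fli1+, against 4.68 and 1.40 in Fli1- libraries. The mesenchyme marker PDGFRB overlapped between High-Fli1+ (83.9 and 68.3 FPKM) and Low-Fli1+ libraries (60.2 and 72.7). Endothelial markers counted 9 rises of 12 in High-Fli1+ against Fli1-, 0 in Low-Fli1+ against Fli1- by limma (1 at an unadjusted p under 0.05) and 3 in High-Fli1+ against Low-Fli1+, with sums of 144 and 157, 24.2 and 29.7, and 11.9 and 8.49 FPKM in High-Fli1+, Low-Fli1+ and Fli1- libraries. The endothelial kdr, pecam1 and clec14a were at 0 in both Fli1- libraries, and clec14a also in both Low-Fli1+ libraries. By mean FPKM, cdh5, esama and stab2 were lower in Low-Fli1+ than in Fli1- cells, while others, such as flt4 and egfl7, were higher.

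Markers of arch mesenchyme and fibroblasts were high in both reporter populations. All 13 rose in High-Fli1+ against Fli1-, 11 in Low-Fli1+ against Fli1- and 0 in High-Fli1+ against Low-Fli1+ by limma (7 at an unadjusted p under 0.05). Their sums were 1481 and 1304 FPKM in High-Fli1+ and 755 and 824 in Low-Fli1+, against 53.4 and 89.5 in Fli1- libraries. Tenocyte markers rose in 7, 4 and 1 of 11 in the same 3 comparisons, with sums of 916 and 785 FPKM in High-Fli1+ and 546 and 760 in Low-Fli1+, against 47.6 and 92.0 in Fli1- libraries. The largest parts of these sums were tgfbi and col12a1a. Mean scxa was higher in Low-Fli1+ than in High-Fli1+ cells (18.3 against 15.7 FPKM). Both fmodb and kera were at 0 in both Low-Fli1+ libraries, with means of 2.36 and 1.75 FPKM in Fli1- cells. Osteoblast markers rose in 3, 1 and 0 of 8 in those comparisons by limma (6, 4 and 2 at an unadjusted p under 0.05). The osteoblast sums were 198 and 133 FPKM in High-Fli1+ and 108 and 66.6 in Low-Fli1+, against 7.80 and 9.03 in Fli1- libraries, and bglap, a marker of mature osteoblasts, was at 0 in all 6.

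Thrombocytes are the fish counterpart of platelets, which hold thrombospondin-1. Of 10 thrombocyte markers tested, 3 rose and 3 fell in High-Fli1+ against Fli1-, 3 rose and 1 fell in Low-Fli1+ against Fli1-, and 0 rose and 1 fell in High-Fli1+ against Low-Fli1+. Over all genes, rises and falls were 5.79% and 11.5%, 2.14% and 1.1%, and 1.22% and 4.15% in the same order. Their summed level was 117 and 82.8 FPKM in High-Fli1+ and 148 and 125 in Low-Fli1+, against 168 and 152 in Fli1- libraries. The markers differed in direction, and tubb1 made up the largest part of the Fli1- sums. The clotting factor f13a1b had 58.4 and 37.8 FPKM in High-Fli1+ and 1.63 and 3.88 in Fli1- libraries, while the tubulin tubb1 had 12.4 and 5.62 in High-Fli1+ and 84.7 and 78.2 in Fli1- libraries. The markers itga2b, mpl, vwf and selp were at 0 in both Fli1- libraries.

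The summed level of myeloid markers was highest in Low-Fli1+ cells. Of 10 tested, 5 rose in High-Fli1+ against Fli1-, 7 rose in Low-Fli1+ against Fli1- and 6 fell in High-Fli1+ against Low-Fli1+, with sums of 157 and 196 FPKM in High-Fli1+ and 693 and 1061 in Low-Fli1+, against 19.7 and 23.5 in Fli1- libraries. In High-Fli1+ against Fli1- cells 7 of the 10 had a log2 fold change above 0. Others were lower there, such as mpeg1.1 (0.670 and 0.412 FPKM, against 3.26 and 3.50 in Fli1- libraries) and csf1ra (1.61 and 1.72, against 2.33 and 3.06). Red cell and neuron markers were highest in Fli1- cells. All 10 erythroid and all 11 neuron markers fell in High-Fli1+ against Fli1-, 3 and 0 fell in Low-Fli1+ against Fli1- by limma (8 and 3 at an unadjusted p under 0.05), and 8 and 8 fell in High-Fli1+ against Low-Fli1+. Erythroid sums were 88.2 and 78.9 FPKM in High-Fli1+ and 3276 and 4997 in Low-Fli1+, against 41206 and 31971 in Fli1- libraries, and neuron sums 132 and 51.6, 1310 and 937, and 2254 and 1990 FPKM in the same order. Of 14 skeletal muscle and 3 heart muscle markers tested, 0 were called in any comparison by limma (2, 1 and 2 of the first and 0, 1 and 1 of the second at an unadjusted p under 0.05). Their sums ranged from 40.9 to 145 FPKM and from 0.260 to 8.94 FPKM over the 6 libraries.

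**Figure D5:**
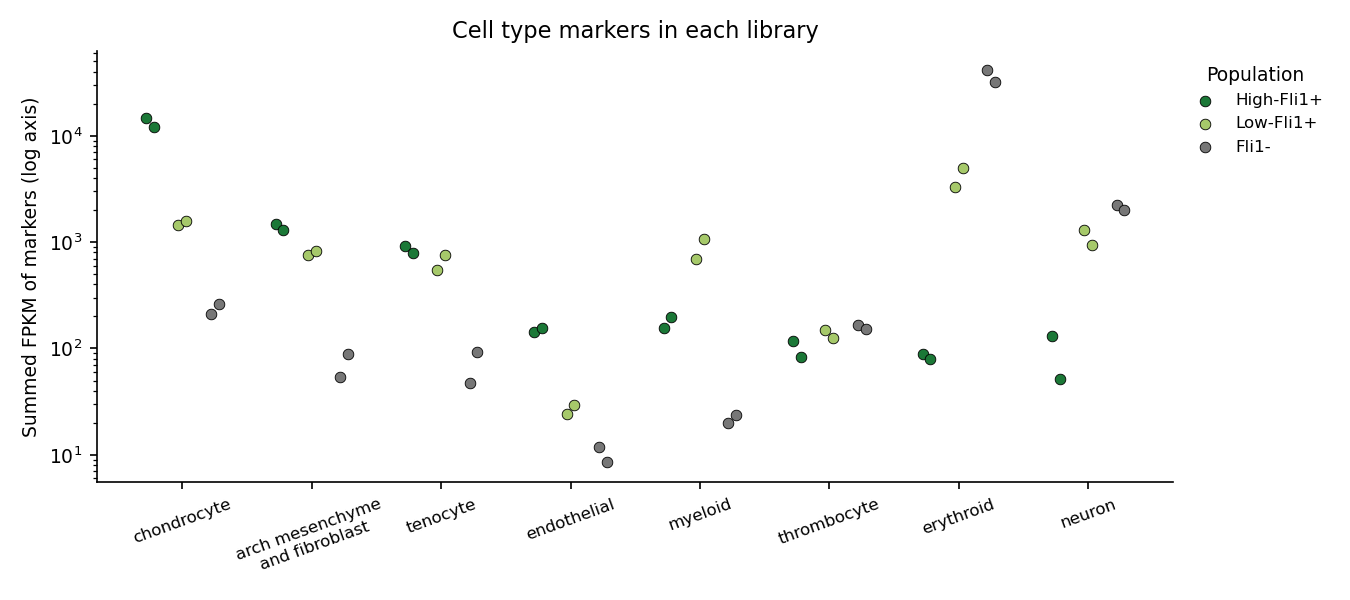
Summed FPKM of the markers of 8 cell types in each library, on a log axis, with points for libraries. Chondrocyte markers are at 14716 and 12126 in High-Fli1+ and 213 and 261 in Fli1- libraries, and myeloid markers peak in Low-Fli1+ (693 and 1061).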

How the data were processed

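RNA was sequenced in 6 libraries of 3 populations. The deposited values are FPKM per gene name and library, made by the authors, per the file headers. The aligner, genome build and annotation are not given in the sources used here, and no sequences or coordinates were used. Names that are dates (18) were left out. Of 29126 genes, the 19237 whose mean FPKM was 0.5 or more were tested. All 6 libraries entered 1 linear model of log2(FPKM + 1) by population in limma 3.58.1 (R 4.3.3), with a variance trend, 3 residual and 2.89 prior degrees of freedom and Benjamini-Hochberg adjustment across the tested genes. Its fold change estimates were checked on simulated data with known fold changes.

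The members and lists were chosen with earlier results of these data known. Of 256 list genes, 229 were found. Named genes are the family, the 3 nearest to each member, the called list genes with the 4 largest fold changes in High-Fli1+ against Fli1- and the 2 largest in each other comparison. The rule also names the 2 highest markers of each cell type, of which not all are described. Genes outside the rule are markers at 0, other list genes named for their direction or overlap, fli1a, Metazoa_SRP and cd36, which were picked after their values were seen. A gene that the rule names is not reported here. Alternatives were 10 settings of the pseudocount, filter, scaling, variance model, libraries fitted, replicate block and weights, and 6 fits that each left out 1 library.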

Additional observations from a re-analysis of the deposited data

How the results depend on the processing

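In 10 alternative settings the 15 member fold changes gave 150 values, of which 137 kept direction and side of the threshold, 11 lost the call and 2 turned; in 90 values with 1 library left out, 54 kept both, 32 lost the call and 4 turned. The turned values were High-Fli1+ against Low-Fli1+ for thbs4b (0.0017 with quantile normalization, 0.25 with median-ratio scaling, and -0.35 to 0.14 with 1 library left out, where 0.0437 came without Low-Fli1+ replicate 1) and for thbs3b (-0.34 to 0.46 with 1 library left out, where -0.0958 came without Low-Fli1+ replicate 2), and the thbs3a to thbs3b ratio of High-Fli1+ against Fli1- (-0.0562 with a pseudocount of 5). Counts over all genes moved by over 1.5 times to 5659 with array weights in High-Fli1+ against Fli1- (3316 in the model used); to 238 with array weights, 335 with the replicate block and 0 in a fit to only the compared populations in Low-Fli1+ against Fli1- (622); and to 366 with array weights, 183 with no filter and 0 with only the compared populations in High-Fli1+ against Low-Fli1+ (1033). In those 2 fits limma called 0 thrombospondins, with 4 and 1 at an unadjusted p under 0.05 (3875 and 3686 of all genes). With 1 library left out, counts over all genes ranged from 201 to 4906, 0 to 797 and 0 to 2262 in the 3 comparisons, and those of thrombospondins from 2 to 5, 0 to 3 and 0 to 1. The cause was not tested. Libraries with the same number deviated from their population means with correlations of 0.0962, 0.0806 and 0.121, so the numbers were not taken to pair them; the replicate block gave 2992, 335 and 840 calls over all genes and 5, 3 and 1 thrombospondins. The planned ratio of thbs1a to thbs1b was not run. With 2 libraries a population and no fragment numbers, the depth behind low FPKM is unknown.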
